A study of Caenorhabditis elegans with 3 samples.

Results

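The 5S rRNA genes of *Caenorhabditis elegans*, the rrn-4 family, were examined in peak lists from chromatin immunoprecipitation and sequencing (ChIP-seq) of RPC-1. This protein is the largest of the subunits of Pol III, RNA polymerase III. The 8 genes rrn-4.1, rrn-4.2, rrn-4.3, rrn-4.4, rrn-4.5, rrn-4.6, rrn-4.15 and rrn-4.16 were taken by name from the RefSeq annotation, out of 16 annotated rrn-4 genes and 46890 annotated nuclear genes. All animals were young adult hermaphrodites of strain YL517, a transgenic line whose RPC-1 carried GFP and FLAG at its C-terminal end, and the labels do not give their age in days. Chromatin from whole animals was sonicated and precipitated with an antibody against GFP in 3 biological replicates of 1 group, so no untagged or untreated group was compared. A peak from whole animals does not tell in which tissue, or in what share of cells, the tagged protein was bound.

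5S rRNA is a structural RNA of the large ribosomal subunit, and its genes are transcribed by Pol III apart from the other rRNA genes. Their promoter lies inside the gene, where the factor TFIIIA binds and brings in TFIIIC and TFIIIB, which recruits the polymerase. tRNA genes also have internal promoters, but TFIIIC binds those directly. Pol III stops at a run of T bases just after its genes. In *C. elegans* most 5S genes lie in a tandem array on chromosome V, alternating with the sls-1 genes for the spliced leader RNA, which is made by RNA polymerase II.

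The copies shown carry the same gene or, in rrn-4.4, a shorter form of it, and the peaks differed between them. The sequences are RefSeq's, from build WBcel235, whose sequence is that of ce11. Each runs 5′ to 3′ on the strand that reads as 5S rRNA, with 100 bases before the gene, the annotated gene in capitals and 20 bases after it. They are rrn-4.15 (chrV:17428779-17429016, plus strand), rrn-4.2 (chrV:17115883-17116121, minus strand), rrn-4.4 (chrV:17118817-17119035, minus strand) and rrn-4.1 (chrV:17120868-17121106, plus strand).
rrn-4.15: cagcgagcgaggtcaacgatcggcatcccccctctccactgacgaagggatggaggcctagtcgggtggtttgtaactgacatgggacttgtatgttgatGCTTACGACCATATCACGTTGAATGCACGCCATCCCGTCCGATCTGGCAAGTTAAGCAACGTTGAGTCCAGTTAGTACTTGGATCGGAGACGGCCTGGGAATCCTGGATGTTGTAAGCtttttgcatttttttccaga
rrn-4.2: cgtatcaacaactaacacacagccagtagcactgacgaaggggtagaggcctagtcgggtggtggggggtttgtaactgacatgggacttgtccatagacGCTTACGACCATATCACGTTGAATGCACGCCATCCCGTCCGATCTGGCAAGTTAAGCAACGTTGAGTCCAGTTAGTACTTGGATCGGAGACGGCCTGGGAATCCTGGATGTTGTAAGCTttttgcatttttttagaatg
rrn-4.4: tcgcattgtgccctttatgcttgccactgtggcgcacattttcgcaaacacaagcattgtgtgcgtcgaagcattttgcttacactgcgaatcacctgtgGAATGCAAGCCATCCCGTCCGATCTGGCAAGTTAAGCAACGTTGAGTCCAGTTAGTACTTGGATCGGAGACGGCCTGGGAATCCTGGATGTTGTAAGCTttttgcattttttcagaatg
rrn-4.1: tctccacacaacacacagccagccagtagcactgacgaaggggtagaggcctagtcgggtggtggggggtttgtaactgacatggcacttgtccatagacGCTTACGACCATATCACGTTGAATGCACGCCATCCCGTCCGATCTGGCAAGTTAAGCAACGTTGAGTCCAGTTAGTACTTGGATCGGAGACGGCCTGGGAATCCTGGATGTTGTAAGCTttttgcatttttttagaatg

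All 118 annotated bases of rrn-4.15 were found in 12 of the 16 genes, itself and 11 array copies. With the base that follows it, rrn-4.15 was identical to rrn-4.1 over 119 bases. Outside the gene they differed in part. Of the 100 bases upstream 73 were identical, and of the 100 bases downstream 70, which is 67.6% and 65.4% identity with gaps counted. Upstream, both held the stretches gaggcctagtcgggtggt and ttgtaactgacatgg. By contrast, rrn-4.2 and rrn-4.1 had 90.4% identity upstream and 100% downstream. The genes rrn-4.4 and rrn-4.5 are annotated with 99 bp, and their sequence aligned from base 21 of rrn-4.15. Counted from 1 at the 5′ end of rrn-4.15, the single difference in rrn-4.4 was C28A and that in rrn-4.3 was G56T. The annotation gives rrn-4.2, rrn-4.3 and rrn-4.4 the plus strand, but their 5S sequence reads on the minus strand, and positions are given here on that strand. The letters TTTT, searched on the gene's own strand in the 20 bases after the gene, followed all 16 genes, 602 of 612 tRNA genes (98.4%) and 16786 of 46890 nuclear genes (35.8%). The run of T was therefore present after copies with and without a peak.

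The 16 genes fell into an array and 2 dispersed copies. The array was taken as all runs of at least 3 copies on one chromosome whose neighbours start within 2000 bp of each other. In build WBcel235 it held 14 annotated copies over 15554 bp of chromosome V, from 17115903 to 17131456. They lay in a run of 10 and a run of 4, with a gap of 2556 bp between starts. How many copies the animals themselves carry was not measured, so counts of copies and of word occurrences are those of the build. The median start-to-start spacing within the runs was 976 bp and ranged between 955 and 1960 bp. Of the 8 genes, rrn-4.1 to rrn-4.6 were array copies. The dispersed rrn-4.15 lay at 17428879 to 17428996 of chromosome V, 297423 bp past the end of the array, and its nearest annotated gene was T27C5.10, a protein-coding gene 705 bp away. The dispersed rrn-4.16 lay on chromosome I at 6169084 to 6169195. It was the most diverged copy, with 112 bp and 87.2% identity to rrn-4.15 over its aligned bases 35 to 118, and its nearest gene was T09B4.4, a protein-coding gene 442 bp away.

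RPC-1 peaks lay over 3 of the 8 genes in the reproducible list, namely the dispersed rrn-4.15 and the array copies rrn-4.2 and rrn-4.4. This list holds the 1914 peaks that the authors kept by the irreproducible discovery rate, a measure of how well peak ranks hold between replicates. The share was 37.5% (exact 95% binomial interval 8.52 to 75.5%), against 4.91% of all nuclear genes and 590 of 612 tRNA genes (96.4%). Over all 16 annotated 5S genes the same 3 were 18.75% (4.05 to 45.6%), an interval that holds the share of all nuclear genes. These intervals cover the counting of genes only, and copies of one sequence are not independent. No other annotated 5S gene had a reproducible peak, so that 2 of 14 array copies and 1 of 2 dispersed copies were covered.

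The longer lists added 1 gene. The pooled list, made from the replicates together, covered rrn-4.15, rrn-4.2, rrn-4.4 and rrn-4.3, which is 4 of 8 genes (50%, exact 95% interval 15.7 to 84.3%), against 30.9% of all nuclear genes and 598 tRNA genes. The interval holds the share of all nuclear genes, and over the 16 annotated 5S genes the same 4 were 25% (7.27 to 52.4%), below it. The list of each replicate covered the same 4 genes, against 28.8% of all nuclear genes in replicate 1, 29.4% in replicate 2 and 32.7% in replicate 3. These lists also hold weak peaks and background. They spanned between 10.2% and 12.9% of the genome, against 1.06% for the reproducible list. No peak in any of the 5 lists lay over rrn-4.16, over rrn-4.1, rrn-4.5 or rrn-4.6, or over the 8 array copies rrn-4.7 to rrn-4.14.

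The dispersed gene rrn-4.15 carried the strongest 5S peak in every list. Signal is the peak caller's own value, and it is read here only within a list, beside the peak's rank with 1 as the strongest. In the reproducible list the peak at rrn-4.15 had signal 2771 and rank 404 of 1914. In the replicate lists it had signal 608.3 and rank 476 of 24182 in replicate 1, 516.9 and rank 432 of 24563 in replicate 2, and 962.0 and rank 404 of 30000 in replicate 3. As a percentile of its own list, with 100 for the strongest peak, this was 98.0, 98.2 and 98.7, a mean of 98.3 ± 0.316 (SD, n = 3).

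The summit over rrn-4.15, the position of the peak's maximum, lay at the start of the gene. Relative to its first base it was at +16 bp in the reproducible list and −2 bp in the pooled list. In the replicate lists it was at +14 bp in replicate 1, 0 bp in replicate 2 and −2 bp in replicate 3, a mean of 4 ± 8.72 bp (SD, n = 3). Every list had a weaker summit downstream on the same interval, past the end of the gene. It lay at +254 bp with signal 267.6 (rank 1194) in the reproducible list, and at +222, +203 and +203 bp in replicates 1, 2 and 3, with signals 50.5, 125.2 and 219.9. The interval around both reached over 921 bp in the reproducible list and stayed short of T27C5.10.

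**Figure D1:**
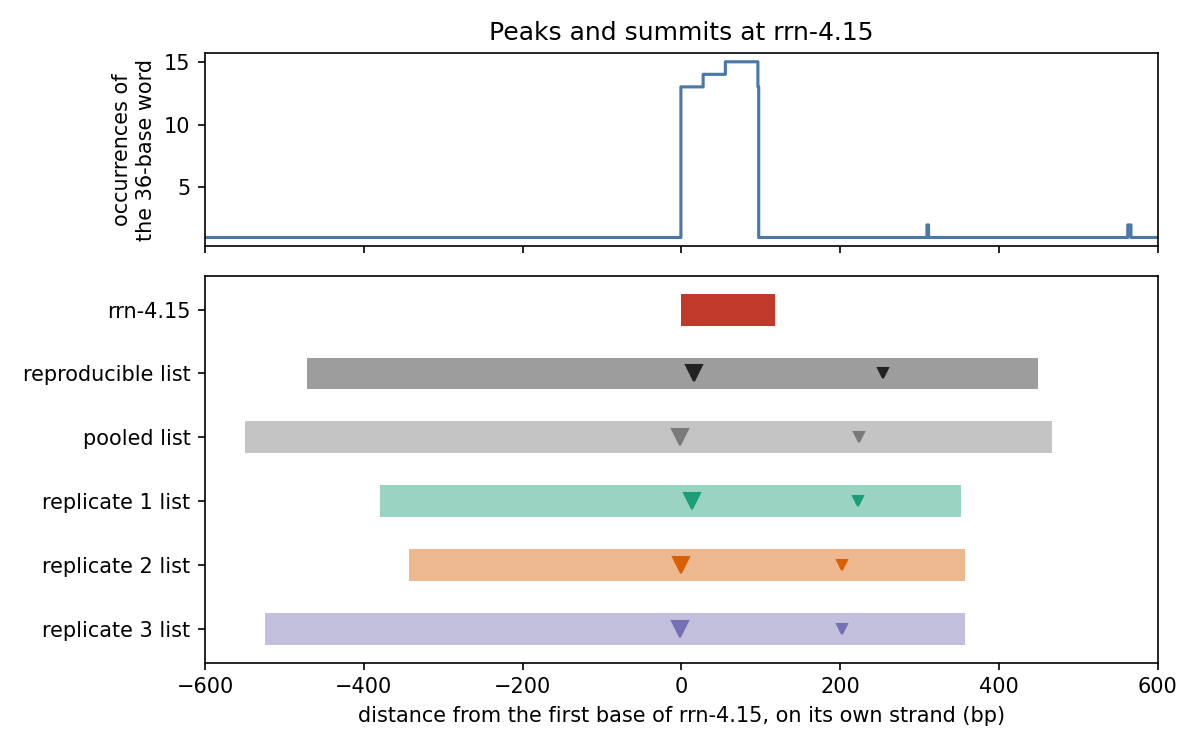
Peaks at rrn-4.15 by distance in bp from its first base. The upper panel gives how often the 36-base word starting at each position occurs in the genome; in the lower panel, bars are peak intervals in the 5 lists, large triangles the strongest summit and small triangles the second. The strongest summit lay between −2 and +16 bp in all 5 lists, and words are repeated in the gene but are nearly all single outside it.

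The array copy rrn-4.2, at the lower-coordinate end of the array, had the next strongest peaks, and rrn-4.14 at the other end had none. The reproducible peaks of rrn-4.2 had signal 273.3 (rank 1188), 191.2 (rank 1384) and 90.8 (rank 1812). Their summits lay at +317 bp, which is 199 bp past the gene, at +108 bp inside the gene, and at −112 bp upstream. The summit inside the gene was found in the reproducible list only, with no counterpart in the pooled list or in any replicate list. In the replicate lists the strongest peak had signal 89.4 in replicate 1, 70.4 in replicate 2 and 153.5 in replicate 3, at ranks 1162, 1253 and 1046. Its percentile was 95.5 ± 0.859 (SD, n = 3), and its summit was again downstream, between +283 and +316 bp. The upstream summit recurred at −111, −112 and −110 bp in replicates 1, 2 and 3, with signals 6.51, 35.94 and 35.98. Replicate 1 was thus lower than the others for the upstream summit, at rank 6654. The nearest annotated gene was ZK218.23, a non-coding RNA gene 274 bp downstream on that strand, and the strongest peak reached over it.

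The array copy rrn-4.4 had peaks on each side of the gene. The reproducible peak had signal 237.1 (rank 1264) with its summit at −28 bp, which had no counterpart in the pooled list or in any replicate list. In the pooled list the overlapping peak had its summit at +109 bp (signal 151.6). Another pooled peak did not overlap the gene and had its summit 162 bp upstream of it (147.4). Replicate 1 had summits at −158 bp (signal 49.5) and +100 bp (43.9), replicate 2 at −150 bp (42.5) and +109 bp (47.7), and replicate 3 at −168 bp (68.7) and +109 bp (69.3). The sides were close in signal within each replicate, and the stronger one was upstream in replicate 1 and downstream in replicates 2 and 3. The percentile of the stronger peak was 94.4 ± 0.649 (SD, n = 3).

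The array copy rrn-4.3 was covered in the longer lists only. Its peak had signal 34.6 (rank 3394) in the pooled list. In replicates 1, 2 and 3 the signals were 2.12, 14.0 and 20.1 and the percentiles 3.84, 88.7 and 89.6, and the deposited −log10 q values were 0.264, 3.89 and 2.95. Replicate 1 stood far below the others, so no mean is given. The summit lay between +167 and +193 bp in all 3 replicates, downstream of the gene.

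Among the 4 genes with no peak, rrn-4.5 was the nearest to one in replicates 1 and 2. A weak peak ended 58 bp before it in replicate 1 and 61 bp before it in replicate 2, with signals 3.66 and 4.93, and the nearest peak in replicate 3 was 671 bp away. For rrn-4.1 the nearest peak in the replicate lists was 1013 to 1626 bp away, and for rrn-4.6 it was 1989 to 2602 bp away. Both are identical to rrn-4.15 over its whole gene. At rrn-4.16 the nearest peak was 679 bp away in replicate 1 with signal 2.37, 4273 bp in replicate 2 and 336 bp in replicate 3 with signal 3.47. In the reproducible list the nearest peak to rrn-4.16 was 4320 bp away.

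**Figure D2:**
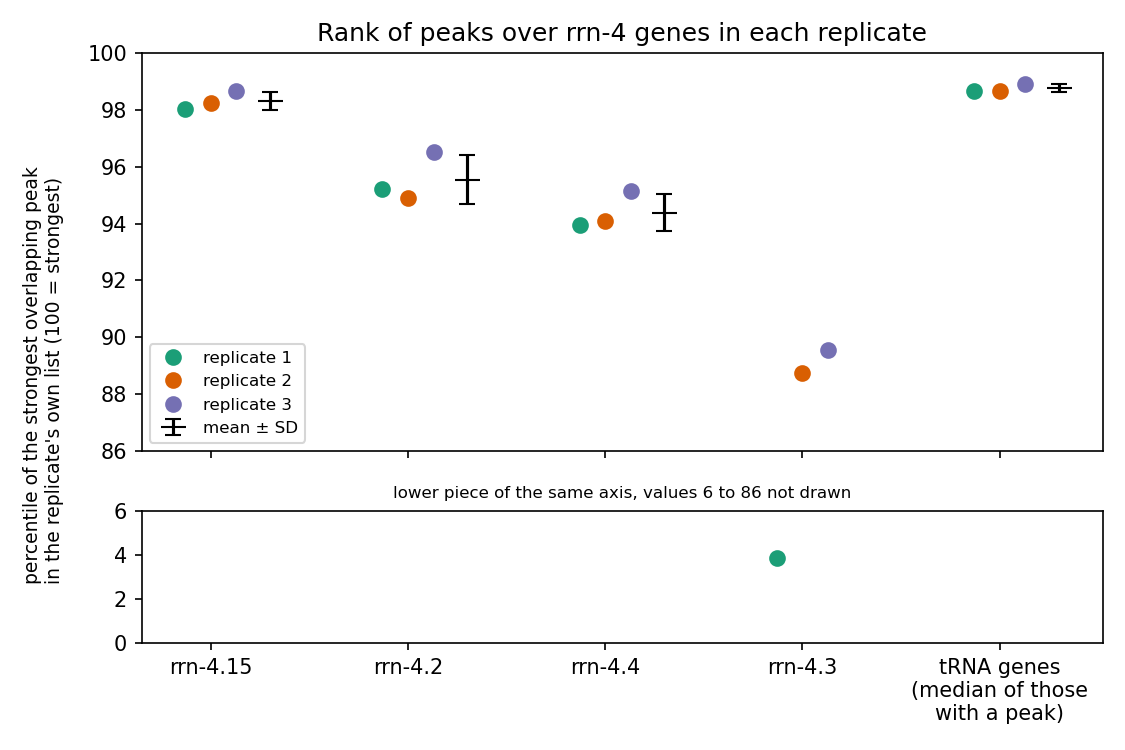
Percentile of the strongest overlapping peak in each replicate's own list (100 = strongest) for the 4 rrn-4 genes with a peak, and the median over the tRNA genes with a peak. Points are replicates, and bars are mean ± SD (n = 3), left out for rrn-4.3; the vertical axis is drawn in 2 pieces. The points of rrn-4.15 lie above those of rrn-4.2 and rrn-4.4 and below the tRNA medians, and rrn-4.3 is at 3.84 in replicate 1.

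Dispersed and array copies were compared within each replicate by the percentile of the strongest peak of each kind. The strongest dispersed copy exceeded the strongest array copy by 2.84 percentile points in replicate 1, 3.34 in replicate 2 and 2.14 in replicate 3. The mean difference was 2.77 ± 0.604 (SD, n = 3), above 0 in 3 of 3 replicates, with p = 0.25 in a two-sided exact sign-flip permutation test, the smallest value that 3 replicates allow. The values did not overlap: rrn-4.15 was between 98.0 and 98.7, and rrn-4.2, the strongest array copy in each replicate, between 94.9 and 96.5. The peak used for rrn-4.2 had its summit 165 to 198 bp past the gene and counts through the overlap of its interval. Shortened to 100 bp on either side of the summit, it would not reach rrn-4.2. The comparison takes the best of 2 dispersed and of 14 array copies, and it rests on rrn-4.15 alone, since rrn-4.16 had no peak.

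The strongest 5S gene ranked below the middle of the tRNA genes, another Pol III class. The percentile of rrn-4.15 minus the median of the tRNA genes with a peak was −0.637, −0.434 and −0.257 in replicates 1, 2 and 3. The mean was −0.442 ± 0.190 (SD, n = 3), with 0 of 3 replicates above 0 and p = 0.25 (two-sided exact sign-flip permutation test). In the reproducible list 375 of the 590 tRNA genes with a peak had a stronger one than rrn-4.15. In replicates 1, 2 and 3 these were 442 of 599, 391 of 596 and 372 of 599 genes. The array copies ranked lower still, as their percentiles show.

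The genes whose percentiles were most like those of rrn-4.15 were found among 1832 non-coding RNA genes, tRNA genes and long non-coding types included. The measure was the mean absolute difference over the 3 replicate lists. The tRNA genes F41D9.t1 and F41D9.t2 and the non-coding RNA gene F41D9.15, which share a peak on chromosome X, came first with a difference of 0.0525 percentile points. The tRNA gene Y4C6B.t2 on chromosome IV followed with 0.0685, and 21ur-12485, a gene annotated for a piRNA on chromosome V, with 0.0818. Ties were cut by gene name, so other genes under the peak at 21ur-12485 would not show. Which gene that peak belongs to was not examined. The reproducible signal was 2771 at rrn-4.15, against 3283 at the F41D9 genes, 2469 at Y4C6B.t2 and 3111 at 21ur-12485.

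Within the array, peaks lay mostly at the end that holds rrn-4.2, rrn-4.3 and rrn-4.4. Reproducible peaks covered 4.71% of the array, pooled peaks 16.1% and replicate peaks between 11.5 and 15.4%. From rrn-4.5 to rrn-4.10 no peak overlapped a gene. The strongest further peak recurred just before the second run of copies, its summit 200 bp from rrn-4.11. It lay at position 17128204 in the pooled list and in replicates 1 and 2. It had signal 112.4 (rank 1664) in the pooled list and 28.8, 26.7 and 62.1 in replicates 1, 2 and 3, and it had no counterpart in the reproducible list. Weaker peaks recurred before rrn-4.5, with signals 9.27 in the pooled list and 3.66 and 4.93 in replicates 1 and 2. Others lay past rrn-4.10, with signals 5.95 in the pooled list and 5.98 in replicate 3. None of the 12 sls-1 genes in or next to the array was overlapped by a peak in any of the 5 lists. In the pooled and replicate lists 3 of the 14 array 5S copies were overlapped, and between 28.8 and 32.7% of all nuclear genes. The share of repeated sequence in the sls-1 genes was not computed.

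**Figure D3:**
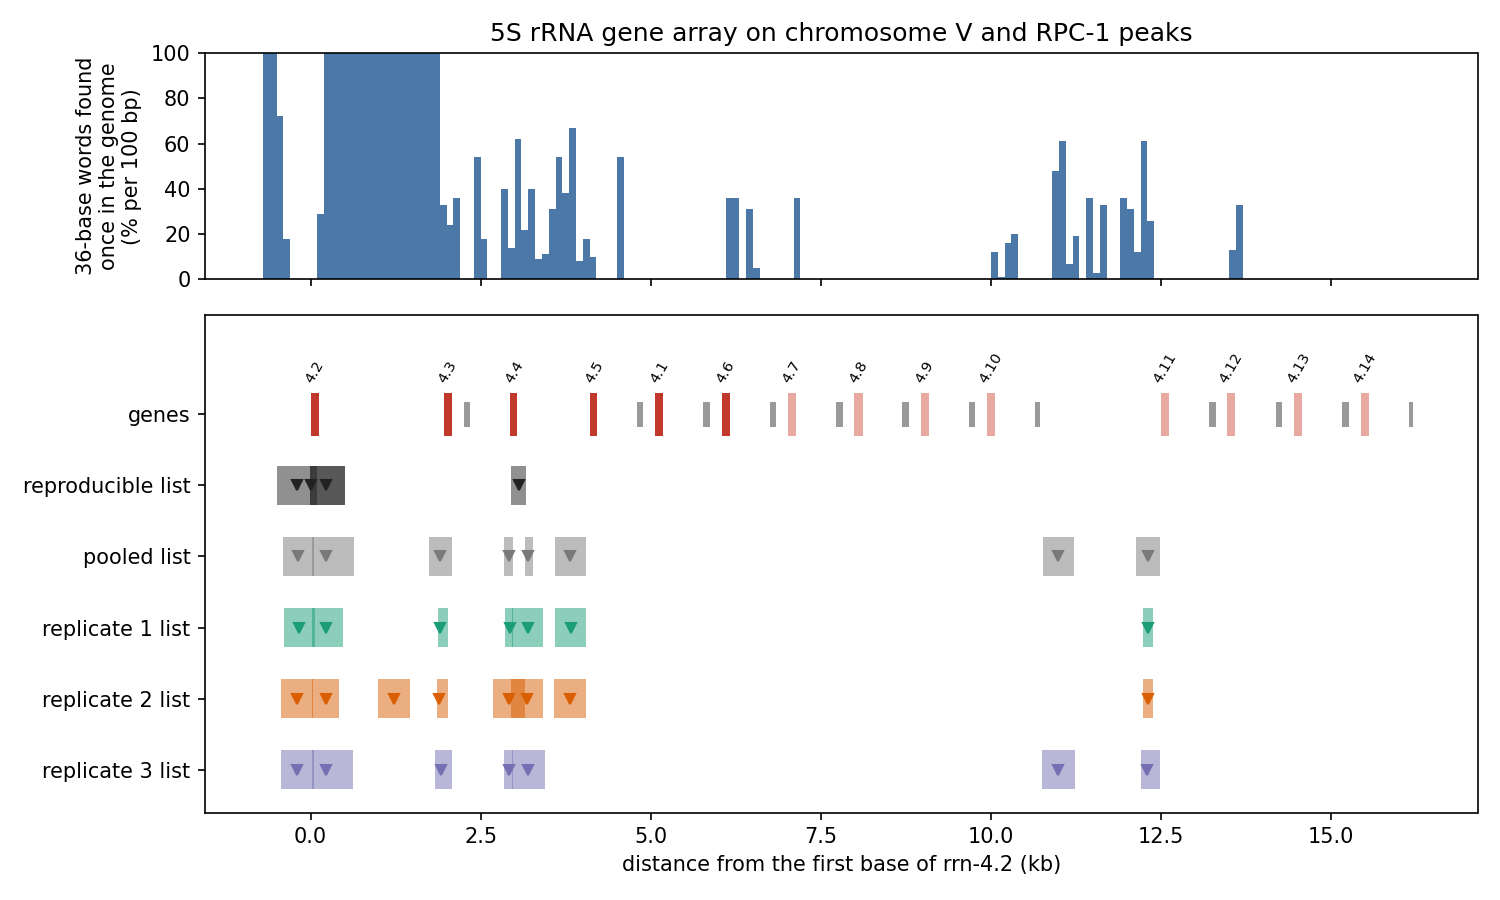
The 5S array by distance in kb from the first base of rrn-4.2. The upper panel gives the share of 36-base words found once in the genome, per 100 bp; below, genes are red (the 6 listed array copies), pink (other 5S copies) and grey (sls-1), and bars with triangles are peaks and their summits in the 5 lists. Peaks gather at the left end, around rrn-4.2 to rrn-4.4, and no peak overlaps rrn-4.5 to rrn-4.14. Single words are most frequent between rrn-4.2 and rrn-4.3.

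The copies differed in how much of the sequence in and around them is repeated, and in the reproducible list genes with and without a peak overlapped in this share. Each 36-base word was counted over the genome on either strand, since a read no longer than its repeat has more than 1 possible origin. All words of rrn-4.15 were repeated, with a median of 14 occurrences, but none in the 200 bp on either side. With the sides counted, 20.3% of its words were repeated. At rrn-4.2 all words of the gene, 31.5% upstream and 100% downstream were repeated, and 76.7% with the sides. At rrn-4.4 the shares were 87.5% in the gene, 66.1% upstream, 76.4% downstream and 70.7% with the sides. At rrn-4.3, which had no reproducible peak and was the least repeated of the listed array copies, they were 57.1%, 78.2%, 2.42% and 51.9%. The genes rrn-4.1, rrn-4.5 and rrn-4.6 were repeated throughout, and with 200 bp on either side 100%, 92.2% and 85.1% of their words were repeated. The gene rrn-4.16 held no repeated word and had no peak. The part of repeated sequence in these results was not tested, because the sources used here do not give the read length or how reads with several origins were treated.

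**Figure D4:**
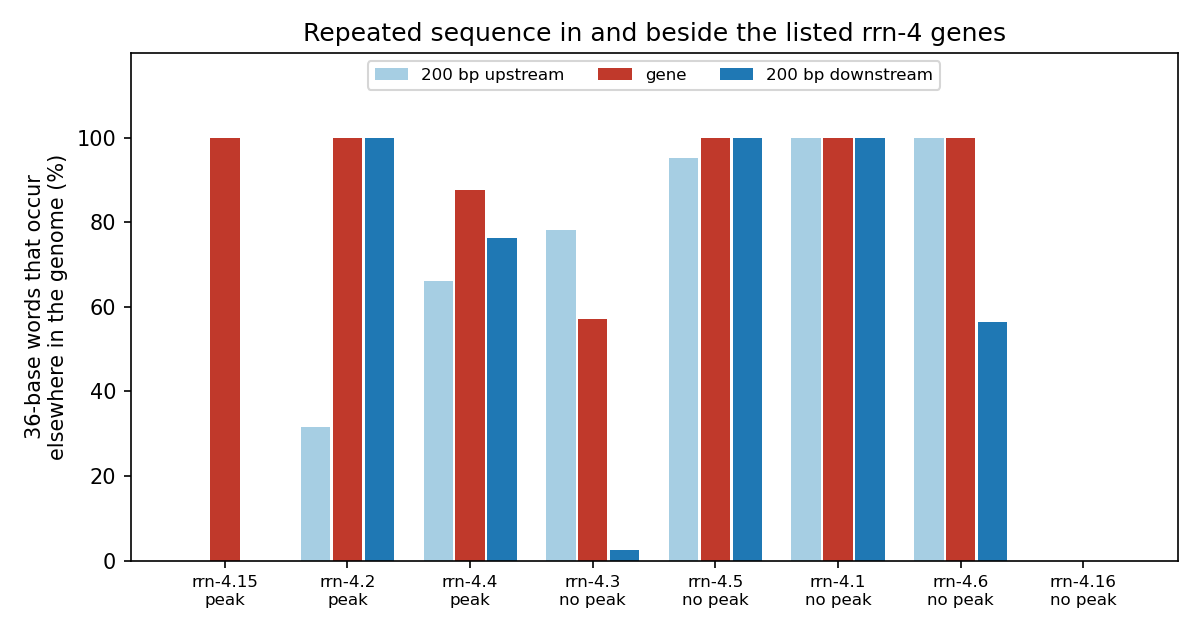
Share of 36-base words that occur elsewhere in the genome, for the 200 bp upstream of each listed gene, the gene and the 200 bp downstream, with "peak" for genes overlapped in the reproducible list. At rrn-4.15 the gene is at 100% and both sides at 0%, and rrn-4.1 is at 100% throughout; rrn-4.16 is at 0% in all pieces.

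Inside peaks, a larger share of the array was single sequence than outside. These shares count the array from the first base of rrn-4.2, and so leave out most of the strongest peak beside rrn-4.2, which reaches past it. In the reproducible list 56.4% of the words in peaks were single, against 17.5% outside peaks. In replicates 1, 2 and 3 the shares were 47.3, 52.7 and 45.4% in peaks, against 15.6, 12.8 and 15.0% outside. With peaks taken whole the share in peaks was 39.8% in the reproducible list and 38.9, 44.9 and 38.4% in replicates 1, 2 and 3. The strongest peak beside rrn-4.2 alone had 15.8% single words in the reproducible list, and between 4.24 and 5.29% in the replicate lists. The upstream summit of rrn-4.2 and the summit before rrn-4.11 had only single words within 50 bp, in each list that held them. Summits beside rrn-4.4 were mixed, with 30.3 to 69.7% single words over the 5 lists, and those before rrn-4.5 had 50%. The summit inside rrn-4.2, in the reproducible list only, had no single word within 50 bp, and the median number of occurrences was 15. The summit downstream of rrn-4.2, the strongest at an array copy, lay 165 to 199 bp outside the array in the 5 lists. Within 50 bp of it, no word was single, and the median number of occurrences was 13. These words lay at 14 places of chromosome V, 13 of which were 149 to 159 bp from a 5S gene of the array. The place beside rrn-4.2 was covered by a peak in all 5 lists, the place beside rrn-4.4 in the list of replicate 2 only, and the other 12 places in none.

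The same measure was set beside the tRNA genes, with genes of each class put into 3 kinds by a limit of 50% repeated words over the 200 bp on either side. Of genes repeated throughout with surroundings under the limit, 1 of 1 5S gene, rrn-4.15, and 465 of 467 tRNA genes had a reproducible peak, and the tRNA share was 99.6% (exact 95% interval 98.5 to 99.9%). Of genes repeated throughout with surroundings at or above the limit, 1 of 12 5S genes, rrn-4.2, and 1 of 6 tRNA genes (16.7%, 0.421 to 64.1%) had one. Of the remaining genes, 1 of 3 5S genes, rrn-4.4, and 124 of 139 tRNA genes (89.2%, 82.8 to 93.8%) had one. The limit was chosen after the values were seen, and no test was made.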

How the data were processed

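Binding of RPC-1 was measured by ChIP-seq in 3 biological replicates. Per the deposited file lists, there was 1 list per replicate, 1 for the pooled replicates and 1 of reproducible peaks, each with a control alignment behind it, which was not analysed here. How reads were aligned and peaks called, with which tools and settings, and how long the reads were is not given in the sources used here. Each deposited list holds a signal per peak, a −log10 q value and the offset of the summit from the start. The authors' signal was used only to rank peaks within a list, and the −log10 q only to describe them. No read counts are part of these lists, so the depth per sample is unknown.

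Only the ce11 lists were used, with the RefSeq annotation of WBcel235. Positions were counted from 1. A gene counted as covered if at least 1 bp of it lay in a peak. The percentile is 100 for the strongest peak of a list. None of the 6 reproducible peaks at 5S genes had the same interval and summit in another list, so which call they came from is not known. Replicates are labelled as biological, and tests over them used an exact sign-flip permutation test. Shares have exact (Clopper-Pearson) intervals. Copies were aligned with Biopython 1.88, and values were computed with Python 3.11.15, pandas 2.3.3, NumPy 2.4.6 and SciPy 1.17.1. The overlap of genes with peaks and the counting of repeated words were tested on simulated data, and the other steps were not. All 8 listed genes are named, and the 5 non-coding RNA genes most alike to the strongest 5S gene were taken by rule, with ties cut by gene name. The gene list and the measures were chosen with earlier results of these data known.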

Additional observations from a re-analysis of the deposited data

How the results depend on the processing

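The count of 8 listed genes with a peak stayed at 3, with 2 array copies and 1 dispersed copy, under 4 settings. These were the strongest peaks of the pooled list, peaks shortened to 100 bp on either side of the summit, at least 50% of the gene covered, and peaks within 200 bp of the gene. An array with neighbours up to 5000 bp apart also left 2 array copies and 1 dispersed copy. The strongest 1914 peaks of each replicate list, an alternative chosen after seeing the data, gave 3 genes in every replicate. With only the strongest 50% of the reproducible peaks, which takes out the lower ranks, 1 gene was left, rrn-4.15, and the array copies fell to 0. The summit of rrn-4.15 was at −2 bp in the pooled list and at 4 bp as the mean of the replicates, against 16 bp, and the cause was not tested.

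The difference between dispersed and array copies ranged between 2.49 and 3.09 percentile points when each replicate was left out, and the difference between rrn-4.15 and the tRNA median between −0.535 and −0.345. Within the strongest 50% of each list they were 5.55 and −0.893, about doubled by construction, since the percentile is relative to the list's length. With shortened peaks they were 4.05 and −0.291. The median share of repeated words over the listed genes with 200 bp on either side was 73.7% with words of 36 bases, 68.2% with 50 and 44.3% with 100. Longer words are repeated less often by construction. The share of single words in reproducible peaks of the array was 56.4%, and 39.8% with peaks that reach past the array taken whole, a setting chosen after seeing the data. No paired analysis was possible because there was only 1 group of samples, and the comparisons between kinds of gene were already made within each replicate. The depth is unknown, and a gene without a peak is a gene without a call in these lists, not one shown to be unbound.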
